A study of Mus musculus with 13 samples.

Results

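Transcripts of 10 genes that encode matrix proteases, their inhibitors and versican were followed in bone marrow-derived macrophages (BMDMs) stimulated with LPS. The genes were taken by name: the metalloproteinases Mmp8, Mmp9, Mmp12, Mmp13, Mmp14 and Mmp19, the membrane-bound protease Adam8, the inhibitors Timp1 and Timp2, and the proteoglycan gene Vcan. They are 10 of 24562 genes with a row in the deposited count table, transcripts without a symbol being counted singly, and each was represented by its transcript row with the highest total count. All 10 passed the filter on low counts, which left 11942 genes to test.

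BMDMs are obtained by growing marrow cells in the presence of macrophage growth factor, supplied here by L929-conditioned medium. LPS, from the outer membrane of Gram-negative bacteria, activates these cells. Control cells came from C57Bl/6J mice with both Acly alleles floxed, Acly being ATP citrate lyase, the enzyme that makes cytosolic acetyl-CoA from citrate. AclyM-KO cells came from female mice, as did the controls, that carry the same floxed alleles and Cre driven from the Lyz2 promoter, which is active in myeloid cells. Since the controls are not stated to carry Cre, effects of Cre and of Acly loss cannot be told apart. The age of the mice that gave the marrow is not given in the sources used here. All groups received LPS at 100 ng/mL, and RNA-seq libraries were made after 3 h (3 control and 3 AclyM-KO) and after 24 h (4 control and 3 AclyM-KO). Unstimulated cells were not analysed here, so no value below is relative to the level before LPS.

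Matrix metalloproteinases are zinc enzymes that are made as inactive precursors and cleave collagens, elastin, proteoglycans and many secreted proteins. TIMPs bind the active site of these enzymes and inhibit them, and Timp2 together with membrane-bound Mmp14 also takes part in the activation of pro-Mmp2. Versican is a large chondroitin sulfate proteoglycan that binds hyaluronan and is found in the provisional matrix of inflamed tissue, where metalloproteinases and ADAMTS proteases cleave it. Activated macrophages make several of these proteins, Mmp12 being known as macrophage elastase.

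Total counts were 21274102 to 59577343 in 12 libraries, whereas control 24 h replicate 1 held 34467 counts, the lowest of the other libraries having 617 times as many. That library was left out of the values below, and 1 count in stood for 22.4 CPM, so its values are given apart. Acly itself was at 106 ± 1.20 CPM in controls and 41.8 ± 4.25 in AclyM-KO after 3 h (SD, n = 3), and at 110 ± 2.78 and 29.9 ± 0.758 after 24 h (log2 fold changes -1.34 and -1.88). Macrophage markers were present in these 12 libraries, with a summed level of 4834 to 12070 CPM over 12 genes. The labels do not say that the replicates came from separate animals, so the p-values measure only the spread between these libraries, which may be technical. CPM are counts scaled to library size after TMM normalization. A gene was called changed where edgeR's quasi-likelihood test gave a Benjamini-Hochberg adjusted p under 0.05 and the log2 fold change was beyond 0.75. In bulk RNA, fewer cells of a type and less RNA per cell cannot be told apart.

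Of the 10 genes, 3 lie in the cluster of metalloproteinase genes on chromosome 9 (GRCm38), where the stretch from Mmp13 to Mmp8 spans 296 kb. Mmp13 (chr9:7272514-7283331), Mmp12 (chr9:7344381-7369499) and Mmp8 (chr9:7558456-7568485) are all on the plus strand there. Of the 6 genes of this stretch, 4 were tested, and Mmp1b and Mmp3, with 4 and 6 counts in all 12 libraries, were too low. Sequences of 250 bases before the annotated start, from RefSeq on GRCm38, are shown for the 3 cluster genes and for Vcan, because these members carry the largest change with time and 2 of the 3 genes called between genotypes. Mmp9, the other gene called between genotypes, and Mmp19 are not among the promoters used here. Capitals mark the letters TGANTCA and TGACNTCA (AP-1 and related factors), TTGCNNAA (C/EBP) or AGAGGAAGT (PU.1), searched on both strands.
Mmp13 (chr9:7272264-7272513, plus strand): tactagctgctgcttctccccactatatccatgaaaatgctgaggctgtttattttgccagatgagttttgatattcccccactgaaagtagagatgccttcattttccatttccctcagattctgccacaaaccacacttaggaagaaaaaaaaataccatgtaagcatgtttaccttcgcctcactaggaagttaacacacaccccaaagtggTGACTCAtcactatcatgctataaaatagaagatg
Mmp12, upstream start (chr9:7344147-7344396, plus strand): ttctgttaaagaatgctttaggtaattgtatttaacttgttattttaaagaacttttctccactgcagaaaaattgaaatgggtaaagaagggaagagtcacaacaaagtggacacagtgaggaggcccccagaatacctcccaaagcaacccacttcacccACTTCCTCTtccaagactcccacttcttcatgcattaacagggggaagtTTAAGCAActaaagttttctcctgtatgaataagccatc
Mmp12, downstream start (chr9:7347124-7347373, plus strand): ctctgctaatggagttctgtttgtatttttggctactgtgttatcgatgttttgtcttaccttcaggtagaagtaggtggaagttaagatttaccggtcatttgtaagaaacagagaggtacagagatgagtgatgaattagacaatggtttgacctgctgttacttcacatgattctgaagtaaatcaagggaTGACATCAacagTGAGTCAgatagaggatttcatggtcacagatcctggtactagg
Mmp8 (chr9:7558179-7558428, plus strand): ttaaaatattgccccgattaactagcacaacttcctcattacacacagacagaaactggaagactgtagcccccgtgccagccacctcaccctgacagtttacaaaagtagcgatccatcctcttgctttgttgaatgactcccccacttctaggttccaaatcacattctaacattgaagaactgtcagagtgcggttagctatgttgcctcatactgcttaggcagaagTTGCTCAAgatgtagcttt
Vcan (chr13:89742513-89742762, minus strand): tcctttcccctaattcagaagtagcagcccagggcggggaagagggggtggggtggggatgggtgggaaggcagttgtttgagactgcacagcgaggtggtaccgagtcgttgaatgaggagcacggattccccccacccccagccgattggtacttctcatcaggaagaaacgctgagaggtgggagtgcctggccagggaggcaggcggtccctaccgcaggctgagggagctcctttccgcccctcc

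The letters TGANTCA stood 35 bases before the start of Mmp13 and 44 bases before the downstream start of Mmp12, and 6.75% of 32851 promoter windows of this length held them. The downstream Mmp12 window also held TGACNTCA, which 7.49% of windows had. A TTGCNNAA match stood 19 bases before the start of Mmp8, and others were found for Adam8 and for the upstream start of Mmp12, against 9.56% of all windows. AGAGGAAGT was found in the upstream Mmp12 window, against 0.798% of all. Both NF-kB motifs searched, present in 1.21% and 0.578% of windows, were in none of the 9 windows of the 8 members with a sequence. The windows of Vcan, Timp1, Timp2 and Mmp14 held none of these letters. Windows of the cluster genes were 39.6 to 44.8% G and C, those of Vcan and Timp2 62.4 and 68.0%, and the median window 52.4%. These matches describe letters and not binding. As for reads that could be shared, Mmp12 overlaps Mmp1b and Vcan overlaps the antisense gene Gm4117, each on the opposite strand. Mmp19 overlaps Tmem198b and lies within the antisense gene Gm47093, both on the opposite strand. Adam8 holds Mir7062 on its own strand.

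Per kilobase of transcript, the order of levels in controls after 3 h was led by Mmp13, at 488 ± 42.5 CPM per kb (SD, n = 3). Adam8 followed at 168 ± 6.61, and Mmp14 and Mmp12 at 133 ± 2.72 and 130 ± 5.44 did not differ beyond their spread. Timp2 stood at 85.1 ± 0.081 and Mmp19 at 8.52 ± 0.527. Timp1, Mmp8 and Vcan, at 3.59, 2.97 and 2.74 CPM per kb, were within their spreads of each other, and Mmp9 was lowest at 0.954 ± 0.115. After 24 h Mmp14 led in both genotypes, with 131 ± 5.05 CPM per kb in controls and 105 ± 4.69 in AclyM-KO. Mmp13 was then at 15.2 ± 2.01 in controls, within the spread of Timp2 at 16.1 ± 0.503. Vcan per kb is uncertain, because 4 of its 5 transcript rows held identical counts although their exons differ, and the stretch that was counted is not known.

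**Figure D1:**
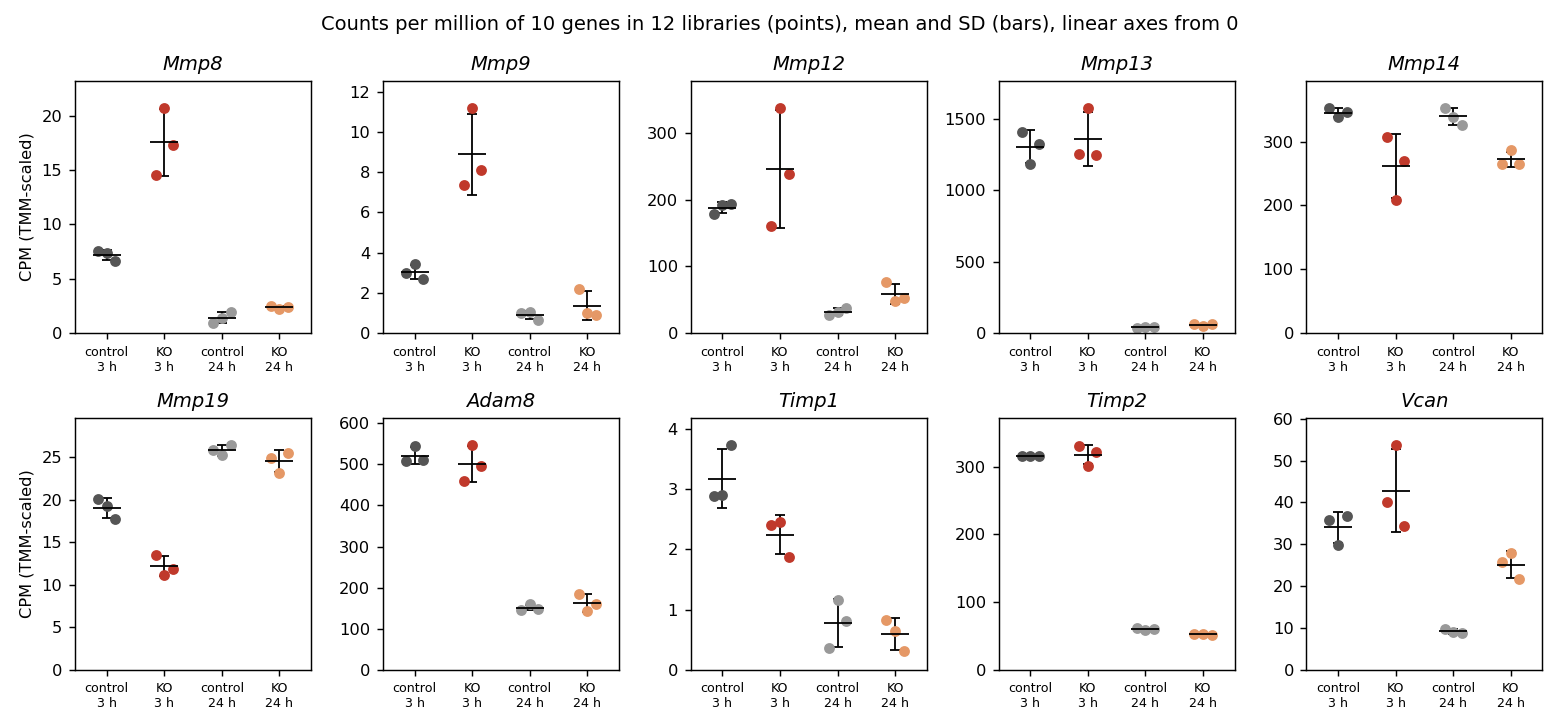
Level of each of the 10 genes in the 12 libraries used, in CPM on linear axes that start at 0. Points are libraries, black lines the mean and SD of 3 libraries. Mmp8 and Mmp9 stand above all controls in the AclyM-KO libraries after 3 h, as 15.4% of all genes tested do. Vcan, Mmp8, Mmp12 and Mmp13 do so after 24 h, as 18.2% of all genes do. In each genotype 8 of the 10 genes are called lower after 24 h than after 3 h. Shares over all genes are 19.5% in controls and 20% in AclyM-KO.

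The first comparison asked how loss of Acly changed these genes after 3 h LPS. Mmp8 and Mmp9, known as neutrophil collagenase and gelatinase B, were higher in AclyM-KO, by 2.44-fold and 2.94-fold. The other 8 were not called, and Mmp19 and Mmp14 had lower values with an adjusted p under 0.05 but a change smaller than the fold threshold. Over all genes tested, 1.41% were called higher and 0.603% lower. Of the members, 2 of 10 were called higher and 0 lower. Their median log2 fold change was 0.03, and that of all genes -0.01.

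Mmp8 was at 7.60, 7.35 and 6.68 CPM in controls and at 14.6, 20.7 and 17.4 in AclyM-KO after 3 h. Every AclyM-KO library lay above every control. The log2 fold change was 1.29 (SE 0.140, adjusted p = 2.94e-07, edgeR's quasi-likelihood test). Mmp9 (chr2:164940780-164955850) was at 2.98, 3.42 and 2.69 CPM in controls and at 7.38, 11.2 and 8.13 in AclyM-KO. These groups did not overlap either, and the log2 fold change was 1.56 (SE 0.221, adjusted p = 5.7e-05). Mmp9 rested on 54 to 73 counts in controls and 144 to 256 in AclyM-KO.

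In these AclyM-KO libraries, replicate 2 gave the highest value for 7 of the 10 members. Without it the log2 fold changes were 1.15 for Mmp8 and 1.36 for Mmp9, and both were still called. Mmp12 was at 179, 192 and 193 CPM in controls and at 161, 338 and 239 in AclyM-KO, so that the groups overlapped. Its log2 fold change of 0.39 (SE 0.270, adjusted p = 0.411) was 0.09 without that replicate. Mmp13, or collagenase-3, was at 1407, 1182 and 1323 CPM in controls and at 1249.5, 1574 and 1246 in AclyM-KO. The log2 fold change of 0.06 (95% interval -0.19 to 0.31) changed sign to -0.06 without replicate 2.

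Mmp19 (chr10:128790910-128800824), a secreted metalloproteinase, was at 20.1, 19.3 and 17.8 CPM in controls and at 13.5, 11.2 and 11.8 in AclyM-KO. All AclyM-KO libraries lay below all controls, with a log2 fold change of -0.65 (SE 0.0867, adjusted p = 3.25e-06, edgeR), short of the threshold of 0.75. Mmp14 (chr14:54431612-54445364) was at 352, 338 and 346 CPM in controls and at 307, 209 and 269 in AclyM-KO. Its groups did not overlap, and its log2 fold change was -0.40 (SE 0.109, adjusted p = 0.0313). Adam8 (chr7:139978932-139992562), a membrane-anchored protease that sheds cell surface proteins, was at 507 to 545 CPM in controls and at 459.5 to 548 in AclyM-KO (log2 fold change -0.06, 95% interval -0.21 to 0.10).

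Of the inhibitors, Timp1 (chrX:20870166-20874735), which also binds the precursor of Mmp9, was at 2.88, 2.90 and 3.74 CPM in controls and at 2.41, 2.45 and 1.88 in AclyM-KO after 3 h. The groups did not overlap, yet the log2 fold change of -0.50 (SE 0.244, adjusted p = 0.185, edgeR) was not called at these 39 to 75 counts per library. Timp1 lies within Syn1, which is on the opposite strand. Timp2 (chr11:118301069-118355740) was at 315, 315 and 316 CPM in controls and at 330.1, 302 and 322 in AclyM-KO, with a log2 fold change of 0.01 (95% interval -0.08 to 0.10). Vcan (chr13:89655312-89742509) was at 35.7, 29.8 and 36.7 CPM in controls and at 40.1, 53.8 and 34.5 in AclyM-KO. These groups overlapped, and the log2 fold change was 0.33 (SE 0.155, adjusted p = 0.196), or 0.13 without AclyM-KO replicate 2.

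Counted by overlap alone, AclyM-KO lay above all controls for 2 members and below them for 3 after 3 h. Of all genes tested, 15.4% lay above and 14.7% below. After 24 h, 4 members lay above and 2 below, against 18.2% and 14.9% of all genes.

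**Figure D2:**
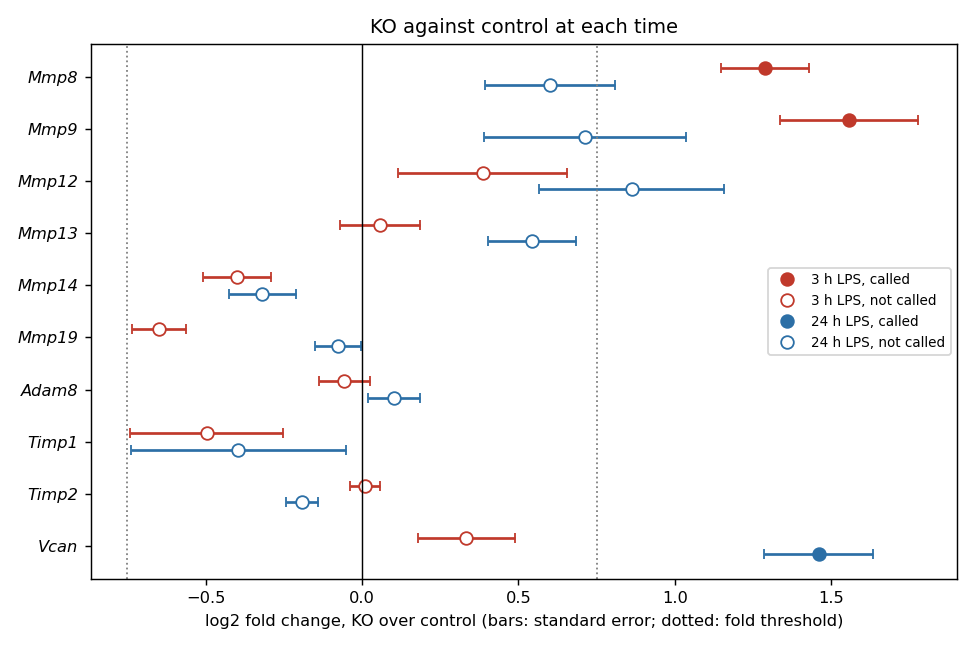
Log2 fold change of AclyM-KO over control for each of the 10 genes after 3 h (red) and 24 h (blue) LPS, with standard errors from edgeR. Filled points are called and dotted lines mark the fold threshold of 0.75. Filled points are Mmp8 (1.29) and Mmp9 (1.56) after 3 h and Vcan (1.46) after 24 h.

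The same comparison after 24 h LPS gave another gene. Vcan was 2.75-fold higher in AclyM-KO and was the 1 member called, whereas Mmp8 and Mmp9 had log2 fold changes of 0.60 and 0.71 that were not called. Of all genes, 0.896% were called higher and 0.486% lower. Members had a median log2 fold change of 0.32, and all genes 0.01.

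Vcan was at 9.76, 8.996 and 8.77 CPM in controls and at 25.6, 28.0 and 21.6 in AclyM-KO after 24 h. The lowest AclyM-KO library was above the highest control, and the log2 fold change was 1.46 (SE 0.174, adjusted p = 0.000254, edgeR's quasi-likelihood test). Ordered from the highest to the lowest log2 fold change, it ranked 35 among 11942 genes. Leaving out each library in turn gave 1.37 to 1.55. The fit of all 13 libraries gave 1.46, a value that could hardly differ, since the added library held 1 count of Vcan. The fifth transcript row of Vcan, which holds 12.6% as many counts, gave a log2 fold change of 1.35 (SE 0.187, adjusted p = 5.98e-06). Isoforms of versican differ in their chondroitin sulfate attachment regions and could not be told apart here.

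Mmp12, macrophage elastase, was at 26.4, 32.3 and 37.0 CPM in controls and at 76.1, 47.8 and 51.8 in AclyM-KO after 24 h. The groups did not overlap, but the log2 fold change of 0.86 had an SE of 0.295 and an adjusted p of 0.0976 (edgeR). With DESeq2 it was called, at 0.88 (adjusted p = 0.0163). Mmp13 was at 34.6, 44.7 and 42.7 CPM in controls and at 63.6, 52.0 and 62.6 in AclyM-KO. Its groups did not overlap, and its log2 fold change of 0.54 (SE 0.140, adjusted p = 0.0335) was below the fold threshold. With all 13 libraries it was 0.43 (adjusted p = 0.611).

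Mmp8 was at 0.943, 1.36 and 1.95 CPM in controls and at 2.48, 2.21 and 2.42 in AclyM-KO after 24 h. AclyM-KO lay above all controls, and the log2 fold change was 0.60 (SE 0.208, adjusted p = 0.0536, edgeR). Without control replicate 4, the deepest library, it was 1.04 and was called (adjusted p = 0.00566). Mmp9 was at 0.984, 1.02 and 0.672 CPM in controls and at 2.18, 1.01 and 0.883 in AclyM-KO. The groups overlapped, replicate 1 of AclyM-KO standing above the rest, and without it the log2 fold change fell from 0.71 to 0.18.

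Mmp14 was at 353, 339 and 326 CPM in controls and at 265, 286 and 266 in AclyM-KO after 24 h, without overlap. The log2 fold change was -0.32 (SE 0.108, adjusted p = 0.08, edgeR). Timp2 was at 61.8, 58.1 and 59.6 CPM in controls and at 53.3, 53.0 and 50.7 in AclyM-KO, also without overlap. Its log2 fold change of -0.19 (SE 0.0520, adjusted p = 0.0113) was far smaller than the fold threshold, and the adjusted p was 0.0671 with all 13 libraries. Mmp19, at 25.2 to 26.5 CPM in controls and 23.1 to 25.6 in AclyM-KO, had a log2 fold change of -0.08 (95% interval -0.22 to 0.07). Adam8, at 146 to 159 and 142 to 185 CPM, had one of 0.10 (95% interval -0.06 to 0.26). Timp1, at 0.369 to 1.15 and 0.307 to 0.826 CPM, had one of -0.40 with a wide 95% interval of -1.07 to 0.28.

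Whether the effect of genotype differed between the 2 times was tested as an interaction in the same fit, called at an adjusted p under 0.05 alone. Mmp19 and Vcan passed, both with a higher AclyM-KO effect after 24 h, among 4.88% of all genes that were called higher and 4.71% that were called lower. For Mmp19 the effect was 0.57 higher on the log2 scale (SE 0.114, adjusted p = 0.00115, edgeR): AclyM-KO lay below controls after 3 h and overlapped with them after 24 h. For Vcan it was 1.13 higher (SE 0.233, adjusted p = 0.0131). Both were called without each library in turn. For Mmp8 and Mmp9 the differences were -0.69 (SE 0.252, adjusted p = 0.088) and -0.84 (SE 0.397, adjusted p = 0.204), which were not called. These 2 values turned on the setting: without a filter on low counts both were called (adjusted p = 0.017 and 0.0462), Mmp8 was also called without AclyM-KO 3 h replicate 1 (-0.82) or control 24 h replicate 2 (-0.86), and Mmp9 without AclyM-KO 24 h replicate 1 (-1.37). The median over the members was 0.13, and over all genes 0.01.

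The time course within each genotype asked how these genes moved between 3 h and 24 h LPS. In controls 8 of the 10 were lower after 24 h, namely all but Mmp14 and Mmp19, and the same 8 were lower in AclyM-KO. In controls 19.5% of all genes were called lower and 20.9% higher, and in AclyM-KO 20% lower and 21.9% higher. Members had a median log2 fold change of -1.96 in controls and -1.99 in AclyM-KO, where all genes had 0.04 and 0.04.

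Mmp13 fell most. It went from 1304 ± 114 to 40.7 ± 5.38 CPM in controls, 32.0-fold lower (log2 fold change -5.00, SE 0.154, adjusted p = 7.43e-10, edgeR). In AclyM-KO it went from 1357 ± 189 to 59.4 ± 6.40, 22.8-fold lower (log2 fold change -4.51, SE 0.150, adjusted p = 1.34e-09). The difference between these falls was 0.49 (SE 0.189, adjusted p = 0.161) and was not called. Its neighbours in the cluster fell less, Mmp12 by 5.83-fold in controls and 4.20-fold in AclyM-KO, and Mmp8 by 4.60-fold and 7.41-fold. Mmp9 was 3.64-fold lower in controls and 6.53-fold lower in AclyM-KO. The adjusted p of these falls lay between 4.42e-15 and 0.000137.

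Timp2 had the most precise change, from 316 ± 0.300 to 59.8 ± 1.87 CPM in controls (5.28-fold lower, adjusted p = 5.1e-27, edgeR) and from 318 ± 14.6 to 52.3 ± 1.47 in AclyM-KO (6.07-fold lower, adjusted p = 1.18e-27). Timp2 shares its strand with Cep295nl, which lies within it. Timp1 was 4.04-fold lower in controls and 3.77-fold lower in AclyM-KO, on 8 to 53 counts per library after 24 h. Adam8 was 3.44-fold and 3.09-fold lower. The adjusted p of these 4 falls lay between 1.05e-11 and 2.6e-06. All libraries of these 3 genes after 24 h lay below all those after 3 h.

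Vcan fell from 34.1 ± 3.72 to 9.17 ± 0.519 CPM in controls (3.74-fold, log2 fold change -1.90, adjusted p = 1.33e-06, edgeR). In AclyM-KO it fell from 42.8 ± 9.93 to 25.1 ± 3.23 (1.71-fold, -0.77, adjusted p = 0.000881). This smaller fall did not reach the fold threshold without AclyM-KO 3 h replicate 2 (-0.59) or without AclyM-KO 24 h replicate 3 (-0.68). Mmp14 had log2 fold changes of -0.03 in controls (95% interval -0.24 to 0.19) and 0.06 in AclyM-KO (-0.16 to 0.27). Mmp19 rose in AclyM-KO from 12.2 ± 1.18 to 24.6 ± 1.27 CPM (log2 fold change 1.02, SE 0.0830, adjusted p = 2.15e-12). In controls it was at 19.0 ± 1.18 and 25.9 ± 0.629 (0.44, SE 0.0773, adjusted p = 6.73e-06), below the fold threshold.

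**Figure D3:**
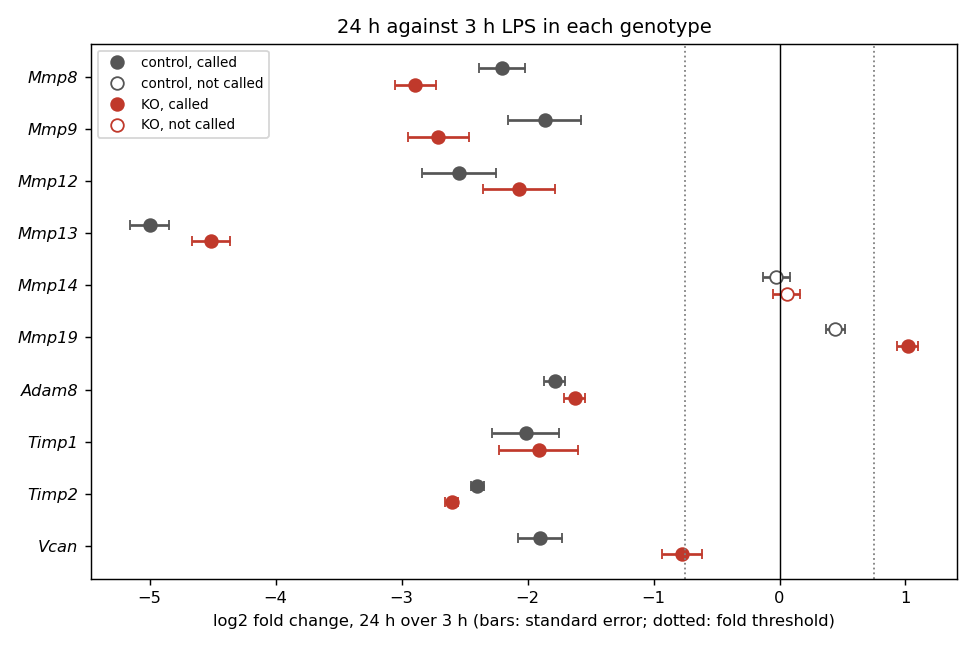
Log2 fold change of 24 h over 3 h LPS in controls (grey) and AclyM-KO (red), with standard errors from edgeR. Filled points are called and dotted lines mark the fold threshold. Mmp13 lies lowest, at -5.00 and -4.51, and Vcan is at -1.90 in controls and -0.77 in AclyM-KO.

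Of the proteases, Mmp9 and Mmp14 were also set against inhibitors that they are known to pair with, Timp1 and Timp2 respectively. The measure was a log2 ratio of counts within a library, which does not depend on the scaling between libraries. With 3 libraries a group, the smallest p of an exact permutation test is 0.1, so no ratio could pass 0.05. Mmp9 over Timp1 after 3 h was 0.05, 0.24 and -0.47 in controls and 1.61, 2.19 and 2.11 in AclyM-KO. The groups did not overlap, and the difference was 2.04 (exact permutation p = 0.1, two-sided, 0.133 after adjustment over 8 comparisons). After 24 h it was 1.42, -0.17 and -0.27 in controls and 1.40, 0.64 and 1.52 in AclyM-KO, which overlapped (difference 0.86, exact permutation p = 0.3).

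Mmp14 over Timp2 was 0.13 ± 0.03 in controls and -0.30 ± 0.22 in AclyM-KO after 3 h (SD, n = 3). After 24 h it was 2.504 ± 0.05 and 2.38 ± 0.06. The rise with time was 2.38 in controls and 2.67 in AclyM-KO, each at the smallest exact permutation p of 0.1. The genotypes differed by -0.43 after 3 h and -0.13 after 24 h, also at the exact permutation p of 0.1.

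**Figure D4:**
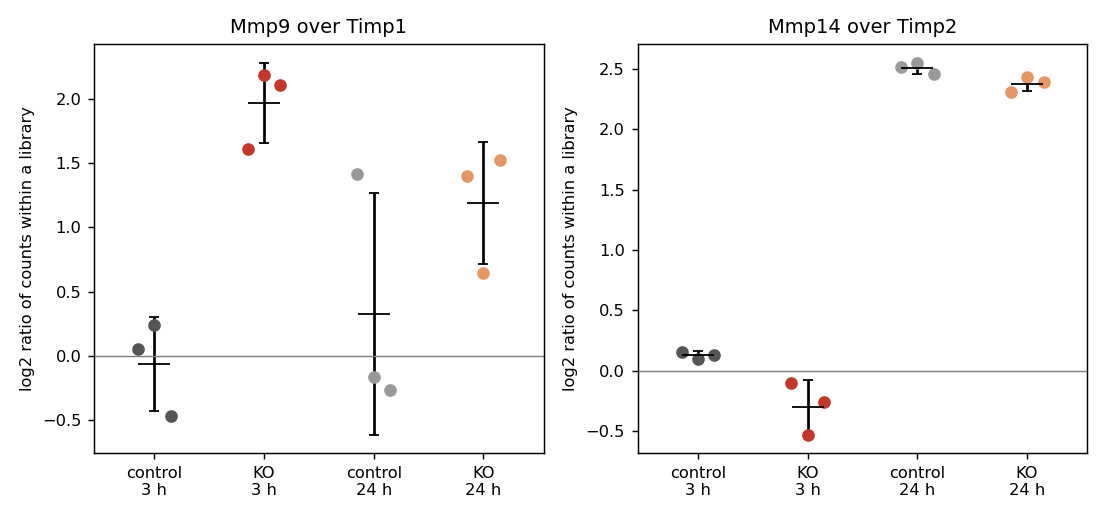
Log2 ratio of counts of Mmp9 over Timp1 and of Mmp14 over Timp2 within each of 12 libraries, by group. Points are libraries, black lines the mean and SD of 3. Mmp9 over Timp1 separates the genotypes after 3 h (means -0.06 and 1.97), and Mmp14 over Timp2 separates the times (0.13 and 2.504 in controls).

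Control 24 h replicate 1 had values unlike the other controls of its group. In CPM of its own total, Mmp13 was at 1770 (61 counts, 95% exact Poisson interval 1350 to 2270), where the other 24 h controls were at 38.1 to 49.3 and the 3 h controls at 1091 to 1276. Mmp12 was at 464 (265 to 754), against 29.1 to 40.6 after 24 h and 162 to 178 after 3 h. Timp2 was at 290.1 (139 to 534), against 64.0 to 68.2 and 285 to 291. Adam8 was at 435 (244 to 718), against 162 to 176 and 460.2 to 503. For Mmp13, Mmp12, Timp2 and Adam8 the interval lay above every other 24 h control, for Timp2 and Adam8 it held all 3 h controls, and for Mmp13 and Mmp12 it lay above these too. Mmp14 and Vcan rested on 6 and 1 counts, and Mmp8, Mmp9, Mmp19 and Timp1 had 0, which allows up to 107 CPM by the same interval. The intervals cover counting error only. With this library in the fit, the number of members called was the same in all 5 comparisons. So few counts can move the fold changes little, so this says little of robustness. The standard error of the Mmp13 genotype effect after 24 h rose from 0.140 to 0.447.

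**Figure D5:**
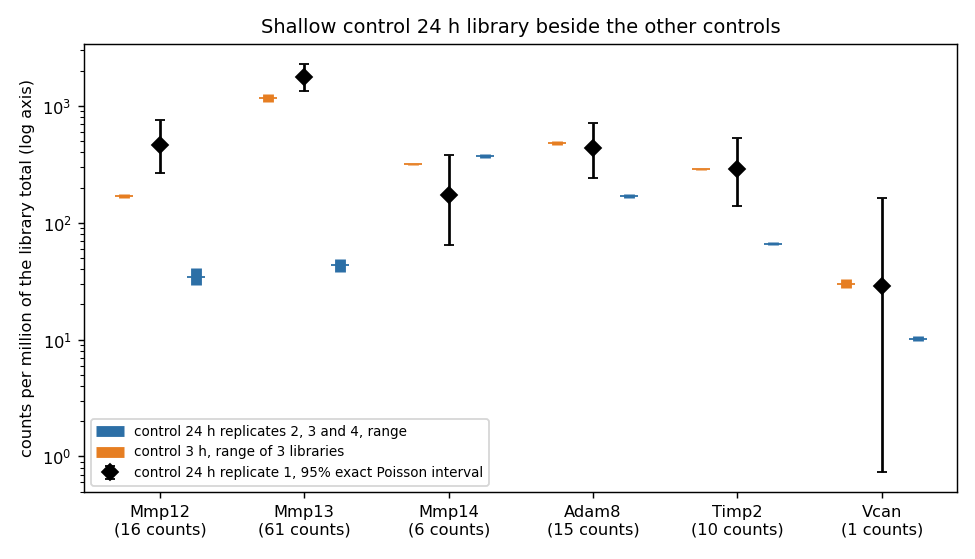
CPM of the library total, on a log axis, for the 6 members with counts in control 24 h replicate 1 (black diamonds, 95% exact Poisson interval). Blue bars are the range of the other 24 h controls and orange bars that of the 3 h controls. Mmp13, Mmp12, Timp2 and Adam8 stand above the other 24 h controls.

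Markers of other cell types were read beside these results, since Mmp8 and Mmp9 are also made by neutrophils and Vcan by monocytes. Of 15 neutrophil markers 7 were tested and 0 were called between genotypes after 3 h. Their summed level was 104 to 109 CPM in controls and 86.2 to 104 in AclyM-KO, and Ly6g and Retnlg were at 0 in all 12 libraries. After 24 h the sum was 220 to 231 in controls and 244 to 284 in AclyM-KO, with Padi4 called lower. Most of this sum came from Csf3r after 3 h, at 79.5 to 85.9 CPM in controls and 64.3 to 79.1 in AclyM-KO. Csf3r and Lcn2 carried most of it after 24 h. Lcn2 was then at 114 to 132 CPM in controls and 143 to 171 in AclyM-KO, without overlap. The sum therefore says little of neutrophils. The granule genes Mpo, Elane and Camp were at 0.350 CPM or less in every library, and Ngp at 0.826 to 5.39. Ltf was at 0.213 to 1.90 CPM, S100a8 at 0.844 to 2.88 and S100a9 at 1.35 to 5.99. Of the 7 tested, 4 fell with time and 1 rose in controls, and 5 fell and 1 rose in AclyM-KO. The shares of all genes that fell and rose were 19.5% and 20.9% in controls, and 20% and 21.9% in AclyM-KO. Ngp, Ltf and S100a9 fell in both, with log2 fold changes of -2.31, -1.77 and -1.54 in controls, and Lcn2 rose (3.985 in controls). Monocyte markers, 8 genes with 6 tested, summed to 27.4 to 32.3 CPM in controls and 35.9 to 38.9 in AclyM-KO after 3 h, with Spn called higher (log2 fold change 1.42). Spn, at 6.50 to 7.75 CPM in controls and 14.8 to 23.7 in AclyM-KO, carried the higher sum, whereas F13a1 (14.9 to 17.4 and 7.57 to 14.3) and Ccr2 (1.40 to 1.45 and 0.973 to 1.25) had lower values in AclyM-KO. The median log2 fold change of the 6 was 0.01. After 24 h they summed to 17.6 to 20.3 and 22.0 to 25.7, with 0 called. Dendritic cell markers, 3 of 8 tested, summed to 3.97 to 5.59 and 6.40 to 8.18 CPM after 3 h, with Kit called higher (0.88). Their sums after 24 h were 1.19 to 1.44 and 1.80 to 2.22. Kit, at 2.13 to 2.79 CPM in controls and 4.04 to 5.64 in AclyM-KO, was the largest part of the sums after 3 h. Flt3 and Cd209a were at 0.0997 CPM or less in every library. None of the 8 monocyte or 8 dendritic cell markers was at 0 in all 12 libraries. The part of these cell types in the levels of Mmp8, Mmp9 and Vcan was not tested. Of 11 fibroblast markers 3 were tested and 0 called between genotypes, with Dpt at 0 in all 12 libraries. Their sum after 3 h was 1.78 to 1.90 CPM in controls and 2.36 to 2.45 in AclyM-KO, without overlap, and after 24 h it was 1.64 to 2.35 and 1.73 to 2.78. The part of fibroblasts in the level of Mmp2 or of the members was not tested. Lymphocyte markers, 1 of 9 tested, summed to at most 1.14 CPM. Of 12 macrophage markers, Lyz2, whose promoter drives the Cre, was called lower in AclyM-KO after 3 h (-0.97), and Lyz2 and C1qa after 24 h (-1.40 and -0.90).

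Among 17 other matrix metalloproteinases 6 were tested, and 3 were called higher in AclyM-KO after 3 h, against 1.41% of all genes. These were Mmp10, or stromelysin-2, at a log2 fold change of 1.38 (adjusted p = 0.0395, edgeR), the gelatinase Mmp2 at 1.35 (adjusted p = 0.00698) and Mmp28 at 0.94 (adjusted p = 0.0292). The median of the 6 was 0.60. After 24 h 0 of the 6 were called, and the effect on Mmp2 differed between the times (-1.95, adjusted p = 0.00271). Mmp10 had at most 29 counts in a library. With time, Mmp27, Mmp10 and Mmp25 fell in both genotypes, with log2 fold changes of -3.82, -2.85 and -1.06 in controls, and Mmp2 rose in controls (1.78).

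Of 24 other ADAM and ADAMTS genes 13 were tested. Adamtsl4 and Adam33 were called lower in AclyM-KO after 3 h (log2 fold changes -0.92 and -0.84), and Adamts14, which processes procollagens, was called higher after 24 h (1.53, adjusted p = 0.00227, edgeR). Over all genes, 0.603% were called lower after 3 h and 0.896% higher after 24 h. The median of the 13 was 0.04 after 3 h and 0.19 after 24 h. With time 1 of the 13 rose and 4 fell in each genotype. Shares over all genes tested were 20.9% and 19.5% in controls, and 21.9% and 20% in AclyM-KO. Adamts4, an aggrecanase that also cleaves versican, had the largest fall of this list, with log2 fold changes of -7.88 in controls and -7.75 in AclyM-KO.

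Of 21 other inhibitors and activators of metalloproteinases 15 were tested, and 0 were called between genotypes at either time. Their medians were 0.19 after 3 h and 0.31 after 24 h. Between 3 h and 24 h 8 fell and 1 rose in each genotype, with medians of -1.64 in controls and -1.54 in AclyM-KO. The shares of all genes that fell and rose were 19.5% and 20.9% in controls, and 20% and 21.9% in AclyM-KO. Plat, or tissue plasminogen activator, fell in both genotypes, with log2 fold changes of -5.33 in controls and -3.63 in AclyM-KO. Lcn2, which binds Mmp9, rose by 3.98 in controls and 4.19 in AclyM-KO. All 15 cathepsins and cystatins were tested, and Ctsk, a collagen-cleaving cathepsin, was called higher in AclyM-KO after 3 h (1.43, adjusted p = 1.22e-05), an effect that differed after 24 h (-1.46, adjusted p = 0.00112).

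Among 20 versican partners and hyaluronan genes 19 had a row and 9 were tested. After 3 h 0 were called between genotypes, and after 24 h Hapln4, a link protein, was called higher (log2 fold change 1.34, adjusted p = 0.0215, edgeR). With time 6 of the 9 fell and 1 rose in each genotype. Shares over all genes tested were 19.5% and 20.9% in controls, and 20% and 21.9% in AclyM-KO. Cd44, the main hyaluronan receptor, had log2 fold changes of -3.47 in controls and -3.60 in AclyM-KO. Of 20 genes for chondroitin sulfate chains 18 were tested. Over all genes, 1.41% were called higher in AclyM-KO after 3 h and 0.896% after 24 h. Chst7 and Ust, both sulfotransferases, were called higher in AclyM-KO after 3 h (0.85 and 0.80), and Xylt1, which starts the chains on the core protein, after 24 h (1.16, adjusted p = 0.000895). Of 30 matrix proteins and proteoglycans 16 were tested and 0 were called between genotypes at either time, with medians of 0.19 and -0.12.

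Genes whose log2 CPM followed each member most closely over the 12 libraries were sought among 10608 genes, as a description in which all genes share the time and genotype groups. Mmp8 was closest to Tnfsf15 (Pearson r = 0.994) and Qpct, and Mmp9 to Adam15 (0.975) and Yif1b. Mmp12 was closest to Itgax (0.993), the integrin CD11c, and Insig2, a gene of sterol control. Mmp13 was closest to Stx11 and Socs7 (both 0.998), Adam8 to Ncapd2 and Prag1 (0.998) and Timp2 to Actn1 and Marcksl1 (0.999). Mmp14, at 0.928 with Creb3l1 and with Lpcat2 next, had the weakest likeness. Mmp19 was closest to Gbp6 (0.978) and Ate1, Timp1 to Yju2 (0.968) and Smarca5, and Vcan to Arel1 (0.963) and Ankib1.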

How the data were processed

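RNA-seq of 13 BMDM libraries (control and AclyM-KO, 3 h and 24 h LPS) was analysed from 1 table of whole-number counts per RefSeq transcript, with replicate numbers taken from the labels. Per the labels and methods, the authors made strand-specific libraries, aligned reads to mm10 with STAR 2.5.2b, after CASAVA 1.8.2, and summed the deposited raw counts with HOMER. The strand and isoform settings of the counting are not given in the sources used here, so reads of overlapping or antisense genes could be shared. The RPKM values named in the methods were not used, and 0 columns of the table were left out of the mapping.

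A RefSeq table gave symbols for 35440 of the 35745 transcripts, and GENCODE M21 (GRCm38, the same build as mm10) brought the number to 35628. Counts were tested in R 4.3.3 with edgeR 4.0.16: TMM normalization, filterByExpr by group (19621 rows of 11942 genes), robust quasi-likelihood fits and Benjamini-Hochberg adjustment over all rows. The 12 libraries other than control 24 h replicate 1 were fitted in 4 groups, since an earlier account of these data showed its low depth. Calls needed an adjusted p under 0.05 and a log2 fold change beyond 0.75, as in the study's methods, and the interaction the adjusted p alone. Replicates differed beyond counting noise (chi-square per degree of freedom 2.71 to 12.4). DESeq2 1.42.0, limma 3.58.1 (loaded by edgeR), other normalizations, filters, row choices and left-out libraries were used for the alternatives. The script was tested on simulated counts. Likeness used a pseudocount of 0.5 CPM and genes with a mean of at least 1 CPM.

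Text named the 10 members, Acly, up to 4 called genes with the largest change per list and comparison, and the 2 nearest genes of each member. Mmp1b, Mmp3 and overlapping genes were named as neighbours, outside that rule. Csf3r, F13a1, Ccr2, Ngp, Ltf, S100a8, S100a9, Mpo, Elane and Camp were named from the marker lists after their values were seen. Of the list genes that the rule names, 1 is not reported here. The members and lists were chosen with earlier results of these data known.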

Additional observations from a re-analysis of the deposited data

Results flagged for a closer look

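Control 24 h replicate 1 stood apart from the other 3 libraries of its group for 7 of the 10 members, by Dixon's criterion for 4 samples. For 4 equally precise values chance gives such a flag in about 1 of 20 groups, but this library is far shallower than the others, so that rate does not hold here. In CPM of its own total, it was at 464 for Mmp12, 1770 for Mmp13, 174 for Mmp14, 0 for Mmp19, 435 for Adam8, 290.1 for Timp2 and 29.0 for Vcan, the last on 1 count. The other 24 h controls were at 29.1 to 40.6, 38.1 to 49.3, 359 to 389, 27.8 to 29.1, 162 to 176, 64.0 to 68.2 and 9.63 to 10.8. Its 34467 counts limit each of these values. The 95% exact Poisson intervals of Vcan (0.735 to 162) and Mmp19 (0 to 107) held all other 24 h controls, so both differences were within counting error. That of Mmp14 (63.9 to 379) reached into the range of the other 24 h controls, 359 to 389, but did not hold the highest of them. The intervals of Mmp12, Mmp13, Adam8 and Timp2 lay above the other 24 h controls.

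The effect of genotype differed between 24 h and 3 h, by the interaction term of edgeR's fit, for Vcan (1.13, adjusted p = 0.0131) and Mmp19 (0.57, adjusted p = 0.00115). The same held for Acly (-0.54, adjusted p = 9.29e-05). Of the genes listed with them, differences on the log2 scale were -1.455 for Ctsk, 0.64 for Ctsh, -0.33 for Ctsd and -0.33 for Cstb among cathepsins and cystatins. Among genes for chondroitin sulfate chains they were -1.18 for Ust, 1.04 for Xylt1, -0.55 for Chpf2 and -0.40 for Xylt2. Among matrix proteins they were -0.51 for Tgfbi and 0.45 for Thbs1. Among ADAM proteases they were 1.41 for Adam33 and -0.30 for Adam15. The other genes were Mmp2 at -1.95, Stab1 at -0.60 and Cemip2 at 0.47. Adjusted p over these lists lay between 1.58e-06 (Ctsh) and 0.0238 (Xylt1).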

How the results depend on the processing

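Of the alternatives to the counts of called members and genes, 138 stayed within 1.5 times the count and 10 moved. Of those to the members' fold changes, 675 kept direction and side of the threshold, 10 newly passed it, 2 no longer did and 13 reversed, all among values that were not called. With the adjusted p alone and no fold threshold, 4 members and 1844 genes were called between genotypes after 3 h, 3 members and 1659 genes after 24 h, and 8949 and 9037 genes with time in controls and AclyM-KO. After 24 h, 2 members were called with DESeq2 (Mmp12 added) and 2 with the replicate block (Mmp8 added, 1.08, adjusted p = 0.00746). The difference between times called 4 members without a filter on low counts (Mmp8 at -0.72 and Mmp9 at -0.87 added). Timp2 was called there with DESeq2 (-0.21, adjusted p = 0.0489) and without AclyM-KO 3 h replicate 2 (-0.25). Deviations of same-numbered libraries correlated at r -0.04 to 0.09 (15 pairs), and those of other pairs at -0.09 to 0.09. No pairing by replicate number was seen, though a small shared effect is not excluded. The block reversed Mmp14 with time in controls (0.0419). With all 13 libraries Mmp14 over Timp2 after 24 h reversed to 0.68.

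Leaving out 1 library at a time gave 2 members and 206 to 324 genes after 3 h, 1 to 2 members and 138 to 167 genes after 24 h (Mmp8 added without control 24 h replicate 4), 8 members and 4814 to 4885 genes with time in controls, 8 to 9 members and 5007 to 5072 genes in AclyM-KO, and 2 to 3 members and 789 to 1652 genes for the difference, where 789 was without AclyM-KO 24 h replicate 3 and 1652 without AclyM-KO 3 h replicate 1. Log2 fold changes that changed sign were Mmp13 (-0.0597 to 0.12), Adam8 (-0.12 to 0.00548) and Timp2 (-0.0151 to 0.0506) after 3 h, Adam8 after 24 h (-0.00380 to 0.19), Mmp14 with time (-0.0535 to 0.00290 in controls, -0.10 to 0.18 in AclyM-KO), and the differences of Timp1 (-0.23 to 0.41) and Mmp14 (-0.0740 to 0.20). Mmp9 over Timp1 with time in controls ran from -0.16 to 0.69. The causes were not tested. Low counts limit Mmp9 and Timp1, with 8 to 58 counts per library after 24 h.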
